A study of Mus musculus with 24 samples.

Results

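The Cyp2c cluster encodes cytochrome P450 enzymes of the hepatocyte endoplasmic reticulum that oxidise drugs, fatty acids, steroids and bile acids. The genes were chosen by name, as Cyp2c37, Cyp2c38, Cyp2c39, Cyp2c40, Cyp2c44, Cyp2c50, Cyp2c54, Cyp2c67, Cyp2c68 and Cyp2c70, which gave 10 of the 15160 genes listed. Of these, 9 carried that name in the table and 1, Cyp2c44, was listed under its other symbol Cyp2c23 and is called Cyp2c23 here. All 10 passed the filter on low counts. The 3 other listed Cyp2c genes, Cyp2c29, Cyp2c55 and Cyp2c69, are given only where their sequence or level bears on a member.

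Liver RNA was taken from 24 male mice on a C57BL/6 background, 6 in each of 4 groups, and sequenced from the 3′ end of each transcript as 1 library per mouse. WT mice carried floxed Nfe2l2 (Nfe2l2 fl/fl) and NRF2 KO mice carried the same floxed alleles with 1 copy of a Cre transgene driven by the albumin promoter, so that deletion was limited to hepatocytes and all 4 groups shared the floxed alleles. From 8 weeks of age the mice were fed for 8 weeks either the control diet (Con, 0.86% methionine) or the methionine-restricted diet (MR, 0.17% methionine), neither of which contained cysteine. The labels give an age of 5 months, and tissue was taken after a 4 h fast. The study places a period of calorimetry and re-equilibration between these 8 weeks and the taking of tissue. It does not state the diet fed in that period, so the time on diet may have been longer than 8 weeks. The mice WT_CON_7604 (WT Con) and WT_MR_7612 (WT MR), which were left out of the study's own comparison, were left out here, leaving 22: 5 on each diet in WT and 6 on each diet in NRF2 KO.

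Libraries held 6197291 to 22068338 counts, of which the 10 members took 0.0848% to 0.186%. Levels are given as CPM, read counts scaled to a common library size after correction for library composition. Nfe2l2 was checked first. Its reads lay at 94.0 to 125 CPM in 9 of the 10 WT mice and at 202 to 339 CPM in the NRF2 KO mice. The reads come from the end of the transcript and were not lower in NRF2 KO, so they do not measure the deletion itself. The library labelled WT_CON_7607 held 324 CPM, inside the NRF2 KO range, so some WT Con results are also given without it. Hepatocyte markers were abundant in every mouse (summed level of 5 markers 70752 to 123059 CPM). Their median was lower on MR than on Con, at 78886 against 100696 CPM in WT and 95475 against 114220 CPM in NRF2 KO, and 1 of the 5 fell in each genotype. The medians of the summed Kupffer, stellate, bile duct and adipocyte markers were also lower on MR in both genotypes. In WT they went from 152 to 121 CPM for the Kupffer list (2 of 6 genes fell), from 456 to 373 CPM for the stellate list (3 of 5), from 28.0 to 13.3 CPM for the bile duct list (3 of 4) and from 24.6 to 12.5 CPM for the adipocyte list (1 of 2 tested). In NRF2 KO, 1 of 6 Kupffer, 2 of 5 stellate, 0 of 4 bile duct and 0 of 2 tested adipocyte genes fell. The pancreatic acinar list was lower on MR too (28.1 to 20.1 CPM in WT and 63.1 to 21.3 CPM in NRF2 KO). The endothelial list went from 269 to 260 CPM and from 270 to 279 CPM. Of all genes tested, 13.8% in WT and 12.6% in NRF2 KO changed with MR at adjusted p under 0.05 (edgeR test). In whole liver, fewer cells of a type and less RNA per cell cannot be told apart. The part of these lists in the Cyp2c values was not tested.

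Of the 10 genes, 9 lie in 1 stretch of mouse chromosome 19 (GRCm38, GENCODE M21), from Cyp2c38 (chr19:39389556-39463075, minus strand) to Cyp2c70 (chr19:40153353-40187333, minus strand). Between them lie Cyp2c39, Cyp2c67, Cyp2c68, Cyp2c40, Cyp2c37 (chr19:39992424-40012243, plus strand), Cyp2c54 (chr19:40037940-40073827, minus strand) and Cyp2c50 (chr19:40089688-40113950, plus strand), with Cyp2c69, which is no member, between Cyp2c40 and Cyp2c37. Cyp2c23 stands apart at chr19:44005022-44029208 on the minus strand. The genes arose by duplication and the coding sequences fall into sets of close copies. Cyp2c37, Cyp2c50 and Cyp2c54 are 95.1% to 96.1% identical in coding sequence. Cyp2c67 and Cyp2c68 are 97.2% identical, Cyp2c40 is 92.3% and 92.7% identical to them, and Cyp2c38 and Cyp2c39 are 94.2% identical. Cyp2c70 and Cyp2c23 have no close copy, with 72.0% and 68.9% identity to the nearest Cyp2c gene.

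The sequences of the last 90 coding bases show how little separates the copies near the end of the transcript that the reads come from. Capitals mark the positions that differ within a set, 3 in the first set and 1 in the second:
Cyp2c37: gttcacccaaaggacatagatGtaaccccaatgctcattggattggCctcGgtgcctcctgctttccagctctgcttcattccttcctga
Cyp2c50: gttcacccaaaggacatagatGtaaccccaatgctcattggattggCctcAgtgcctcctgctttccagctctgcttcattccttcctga
Cyp2c54: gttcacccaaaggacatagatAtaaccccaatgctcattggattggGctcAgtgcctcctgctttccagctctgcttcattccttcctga
Cyp2c67: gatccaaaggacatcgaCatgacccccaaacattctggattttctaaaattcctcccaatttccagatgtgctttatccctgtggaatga
Cyp2c68: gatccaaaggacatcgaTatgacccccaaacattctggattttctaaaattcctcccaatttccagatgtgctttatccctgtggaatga
Cyp2c40: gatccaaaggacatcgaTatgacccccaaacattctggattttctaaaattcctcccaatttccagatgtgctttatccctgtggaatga

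The copies differ more in the rest of the transcript end. Of the 451 stretches of 50 bases in the last 500 bases of each transcript, none of Cyp2c38, Cyp2c70 or Cyp2c23 occurs in another Cyp2c transcript of the annotation, and 12.0% of Cyp2c39 do. The share was 27.1% to 30.4% for Cyp2c37, Cyp2c50 and Cyp2c54, 51.2% for Cyp2c67 and for Cyp2c68, and 74.3% for Cyp2c40. The handling of reads that match several copies is not given in the sources used here, so the values of Cyp2c40, Cyp2c67 and Cyp2c68 are the most uncertain between themselves.

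The members' upstream sequences were compared because Cyp2c37 and Cyp2c50, which are close copies, had fitted changes of opposite sign with the diet. RefSeq (GRCm38.p6) gives a start for 8 of the 10 members. The 250 bases before the start of Cyp2c37 (chr19:39992174-39992423, plus strand) and of Cyp2c50 (chr19:40089429-40089678, plus strand) are 84.6% identical when aligned end to end, and the 30 bases of each that have no match in the other are in capitals:
Cyp2c37: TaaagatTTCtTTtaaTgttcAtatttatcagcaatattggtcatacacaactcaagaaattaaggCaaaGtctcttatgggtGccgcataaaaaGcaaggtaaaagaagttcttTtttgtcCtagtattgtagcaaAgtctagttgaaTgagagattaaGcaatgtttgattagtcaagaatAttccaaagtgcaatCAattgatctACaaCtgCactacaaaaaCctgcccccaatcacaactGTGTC
Cyp2c50: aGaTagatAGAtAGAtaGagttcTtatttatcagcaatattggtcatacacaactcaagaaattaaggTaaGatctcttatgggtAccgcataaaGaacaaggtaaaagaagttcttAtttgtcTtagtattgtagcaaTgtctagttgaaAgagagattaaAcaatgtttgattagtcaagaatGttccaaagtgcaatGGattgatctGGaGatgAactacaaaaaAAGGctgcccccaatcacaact
Searched on both strands, the antioxidant response element core TGACNNNGC was found in 0 of the 9 upstream windows of the members (Cyp2c39 has 2 starts, 1 of them beyond Cyp2c38 and outside the annotated gene), against 10.2% of all 32851 windows of this length. The STAT-type motif TTCNNNGAA was also found in 0 of 9 (7.0% of all), the nuclear receptor half-sites AGTTCA in 3 (11.8%) and AGGTCA in 2 (14.0%), 1 of them that outlying window of Cyp2c39,, and TATAAA in 3 (12.4%). A missing motif says only that these letters are not in this window.

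In WT Con liver, Cyp2c23 had the highest mean level (418 ± 91.4 CPM, SD, n = 5), followed by Cyp2c50 (363 ± 93.6), Cyp2c70 (205 ± 55.3) and Cyp2c68 (139 ± 21.7). Cyp2c54 (118 ± 38.7), Cyp2c67 (96.9 ± 24.9), Cyp2c37 (86.2 ± 30.1) and Cyp2c38 (64.5 ± 17.3) came next, and Cyp2c40 (6.88 ± 2.83) and Cyp2c39 (1.79 ± 0.81) were lowest. These are levels of 3′ reads, which need no division by gene length. Cyp2c38 lay above Cyp2c40 and Cyp2c40 above Cyp2c39 in every mouse of all 4 groups, while Cyp2c40 exceeded Cyp2c54 in WT_MR_7615 and both Cyp2c54 and Cyp2c67 in KO_MR_7629. Cyp2c50 exceeded Cyp2c70, and Cyp2c70 exceeded Cyp2c68, in 5 of 5 WT Con mice, but in 1 of 6 and 3 of 6 NRF2 KO MR mice. The other neighbours in the WT Con order were not separated in every mouse: Cyp2c23 exceeded Cyp2c50, Cyp2c68 exceeded Cyp2c54, Cyp2c54 exceeded Cyp2c67 and Cyp2c37 exceeded Cyp2c38 in 3 of 5 mice each, and Cyp2c67 exceeded Cyp2c37 in 4 of 5.

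**Figure D1:**
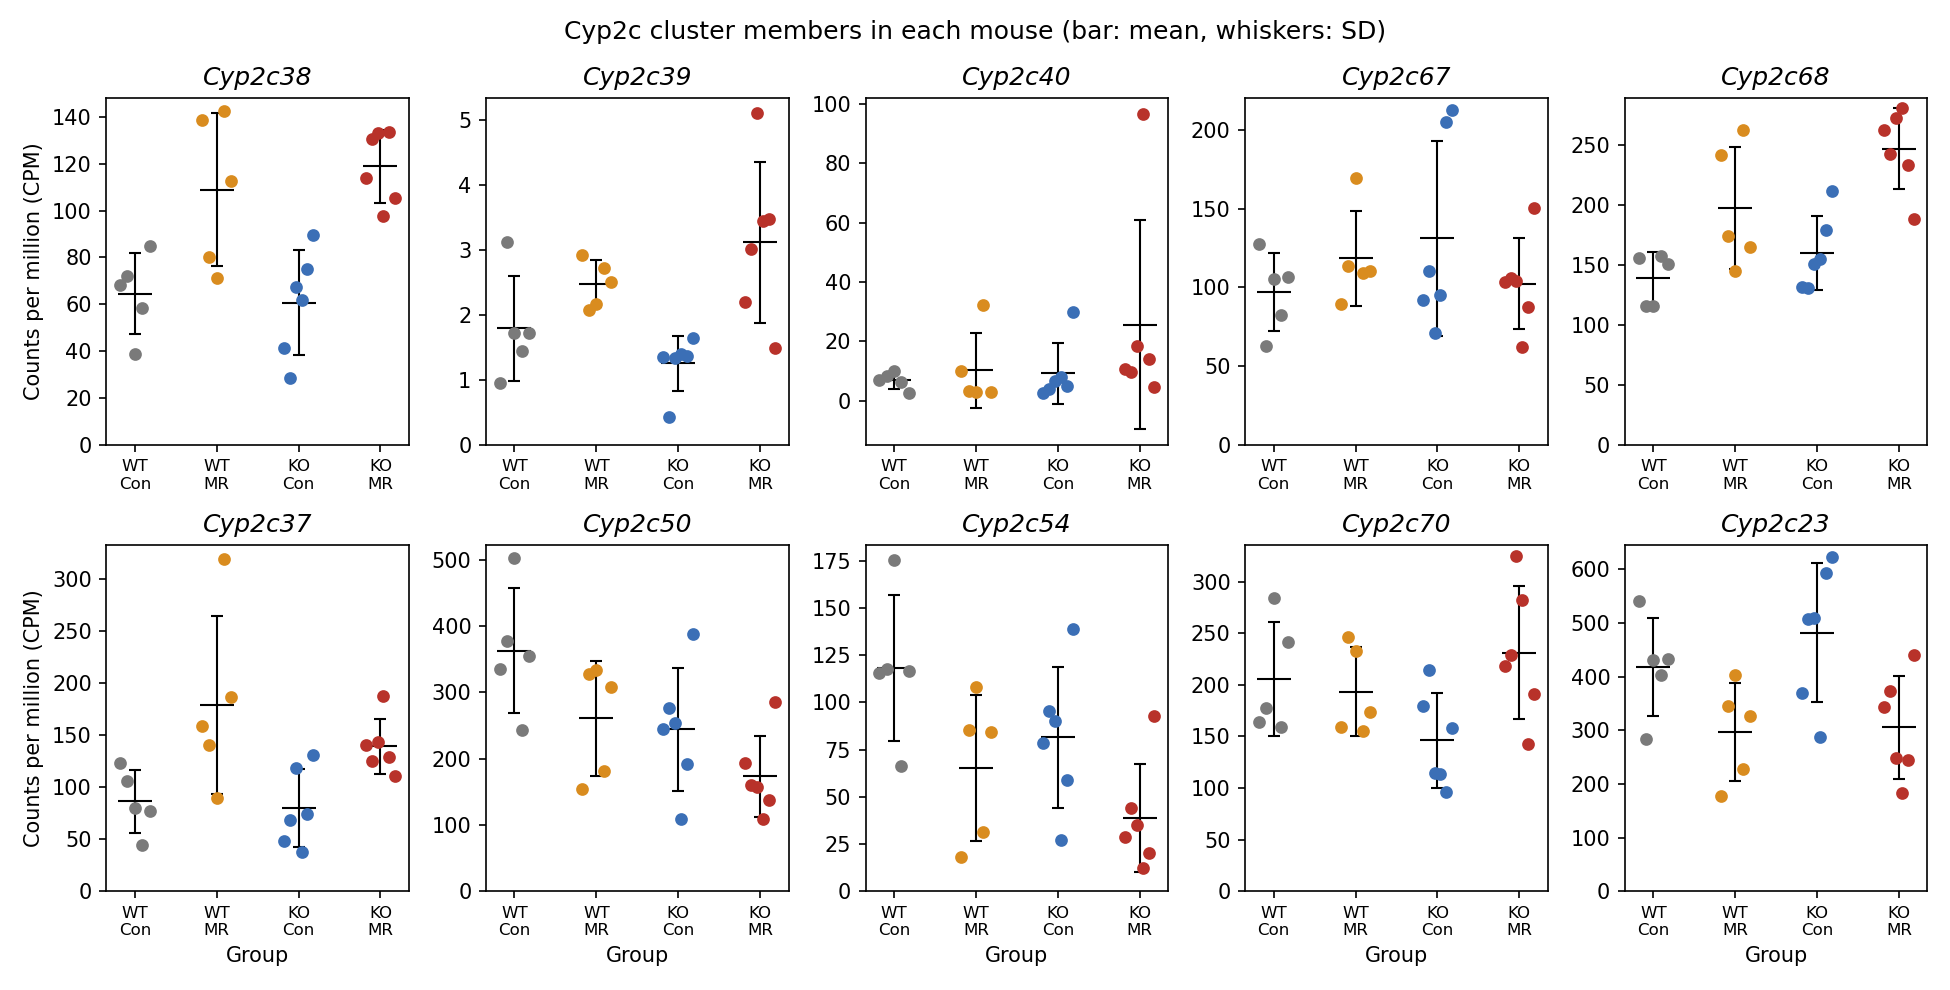
Level of each Cyp2c member in each of 22 mice, in CPM on a linear axis by group, with 1 panel per gene (points: mice, bar: mean, whiskers: SD, n = 5 in each WT group and 6 in each KO group). The NRF2 KO MR mice lie above all NRF2 KO Con mice for Cyp2c38, and a single mouse lies far above its group for Cyp2c40 in 3 groups.

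The comparison of MR with Con within each genotype asks whether the diet changed these enzymes and whether the change needed hepatic NRF2. In WT, Cyp2c68 rose and the other 9 members did not pass the test, so that 1 of 10 was called where 13.8% of all 13336 genes tested were. In NRF2 KO liver Cyp2c38, Cyp2c39 and Cyp2c68 rose, 3 of 10 against 12.6% of all genes. No member fell in either genotype at this threshold. The median log2 fold change of the 10 members was 0.37 in WT and 0.65 in NRF2 KO, against -0.0062 and -0.0042 over all genes tested.

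Cyp2c68 was the member that passed in both genotypes. Its level was 156, 115, 116, 157 and 151 CPM in the WT Con mice and 241, 174, 144, 262 and 165 CPM in the WT MR mice. In NRF2 KO it ran from 131 to 211 CPM (median 152) on Con and from 188 to 281 CPM (median 252) on MR. Of the WT MR mice 4 of 5 lay above every WT Con mouse, and of the NRF2 KO MR mice 5 of 6 lay above every NRF2 KO Con mouse. The log2 fold change was 0.50 (SE 0.16, adjusted p = 0.037, edgeR quasi-likelihood test) in WT and 0.63 (SE 0.15, adjusted p = 0.0064) in NRF2 KO. In WT the call was lost without mouse WT_CON_7603, WT_CON_7605, WT_MR_7609 or WT_MR_7615 and when only both WT groups were fitted, with log2 fold changes of 0.38 to 0.60 over all single-mouse omissions. Without the library labelled WT_CON_7607 the change was 0.56 and the call held.

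Cyp2c38 and Cyp2c39 form the next set. Both are epoxygenases of arachidonic acid, and Cyp2c39 also hydroxylates retinoic acid. Cyp2c38 ran from 28.5 to 89.5 CPM (median 64.6) in NRF2 KO Con and from 97.6 to 134 CPM (median 122) in NRF2 KO MR, with no overlap between the groups, and it was the single member of 10 without overlap there, where 5.45% of all genes had none. In WT 0 of 10 members lacked overlap (9.32% of all genes), as did 0 of 10 in NRF2 KO against WT on Con (1.83%) and on MR (4.60%). Cyp2c38 had a log2 fold change of 0.97 with MR in NRF2 KO (SE 0.24, adjusted p = 0.012, edgeR test). In WT it was 68.4, 72.2, 38.8, 58.3 and 85.0 CPM on Con and 139, 80.0, 71.1, 142 and 113 CPM on MR, a log2 fold change of 0.75 (SE 0.26, adjusted p = 0.064) that did not pass here, but passed with DESeq2 (0.76) and with all 24 mice. It also passed without WT_CON_7608 (0.88), WT_MR_7613 (0.88) or KO_CON_7618 (0.75).

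Cyp2c39 was the lowest member, with 6 to 83 counts per library, so its values carry a large counting error. It was 0.95, 3.12, 1.72, 1.44 and 1.72 CPM in WT Con and 2.92, 2.08, 2.16, 2.71 and 2.50 CPM in WT MR, where the groups overlapped (log2 fold change 0.46, SE 0.31, adjusted p = 0.35). In NRF2 KO it ran from 0.42 to 1.64 CPM (median 1.35) on Con and from 1.49 to 5.10 CPM (median 3.22) on MR, and 5 of 6 MR mice lay above every Con mouse. The log2 fold change in NRF2 KO was 1.32 (SE 0.28, adjusted p = 0.0032), and both NRF2 KO calls of this set held in each of the 22 fits that left out 1 mouse. The larger change of Cyp2c39 in NRF2 KO than in WT did not pass the test of the difference (interaction 0.86, SE 0.42, adjusted p = 0.66).

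Cyp2c37, Cyp2c50 and Cyp2c54 oxidise arachidonic acid and are close copies of one another, yet the fitted changes of Cyp2c37 were above 0 and those of Cyp2c50 and Cyp2c54 below 0. Cyp2c37 was 123, 106, 80.2, 44.4 and 77.3 CPM in WT Con and 159, 140, 89.6, 319 and 187 CPM in WT MR, with 4 of 5 MR mice above every Con mouse. In NRF2 KO it ran from 37.97 to 130 CPM (median 71.1) on Con and from 110 to 187 CPM (median 134) on MR. The log2 fold changes of 1.05 in WT (SE 0.35, adjusted p = 0.053) and 0.81 in NRF2 KO (SE 0.32, adjusted p = 0.10) did not pass; the first passed with DESeq2 and with scaling by library size alone, and the second with the latter. The WT change also passed without WT_CON_7602 (1.21), WT_MR_7613 (1.22), KO_CON_7621 (1.05) or KO_CON_7623 (1.05), and the NRF2 KO change without KO_CON_7623 (1.00).

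Cyp2c50 was 335, 378, 503, 243 and 355 CPM in WT Con and 154, 328, 334, 181 and 308 CPM in WT MR. In NRF2 KO it ran from 110 to 388 CPM (median 249) on Con and from 109 to 285 CPM (median 159) on MR. The groups overlapped in both genotypes, with log2 fold changes of -0.48 (SE 0.31, adjusted p = 0.33) and -0.49 (SE 0.28, adjusted p = 0.27). Cyp2c54 had the same pattern at a lower level. It was 116, 118, 175, 66.2 and 117 CPM in WT Con and 17.9, 85.3, 108, 31.2 and 84.2 CPM in WT MR. In NRF2 KO the medians were 84.3 CPM on Con (26.9 to 139) and 31.7 CPM on MR (12.2 to 92.6). The log2 fold changes were -0.85 (SE 0.53, adjusted p = 0.31) and -1.08 (SE 0.49, adjusted p = 0.16), and without mouse KO_MR_7632, the highest of its group, the second was -1.55 and passed (adjusted p = 0.040).

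The summed reads of each set of copies do not depend on how reads were divided within the set. They would still be too low if reads that match several copies were dropped, which is not known. Of the end stretches of 50 bases of Cyp2c38 and of Cyp2c29, 0 occur in another Cyp2c transcript, so their sum is mainly a sum over related genes. The sum of Cyp2c37, Cyp2c50 and Cyp2c54 had a mean of 567 ± 145 CPM on Con and 505 ± 99.6 on MR in WT (SD, n = 5 each). In NRF2 KO it was 405 ± 160 and 351 ± 71.4 CPM (n = 6 each). In NRF2 KO the diet difference of the sum was smaller than the spread. In WT this held only with the library labelled WT_CON_7607 included, at 353 CPM against 549 to 758 in the other WT Con mice. The WT MR mice held 330, 553, 531, 531 and 579 CPM. Whether the sum changed with MR in WT is therefore not settled by these values. The sum of Cyp2c40, Cyp2c67, Cyp2c68 and Cyp2c69 was 246 ± 37.9 CPM on Con and 332 ± 57.8 on MR in WT, and 305 ± 103 and 392 ± 66.1 CPM in NRF2 KO. The sum of Cyp2c38, Cyp2c39 and Cyp2c29 was 501 ± 172 and 555 ± 107 CPM in WT, and 378 ± 71.4 and 584 ± 122 CPM in NRF2 KO. Cyp2c29, the most abundant of these, was not called in either genotype (0.03 and 0.55), while Cyp2c55, a lowly expressed neighbour, rose in NRF2 KO (log2 fold change 1.56, SE 0.28, adjusted p = 0.00091). Its log2 fold change in WT was 0.19 (SE 0.31), and the difference between the genotypes did not pass (interaction 1.37, SE 0.42, adjusted p = 0.39). The library labelled WT_CON_7607 was the lowest of WT Con for the sum with Cyp2c29 (233 CPM, against 449 to 685). It was also the lowest for Cyp2c29 (174 CPM, against 362 to 610) and the highest for Cyp2c55 (6.36 CPM, against 1.04 to 4.66). The WT changes of these therefore lean on that library, and their values without it are not given here.

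**Figure D2:**
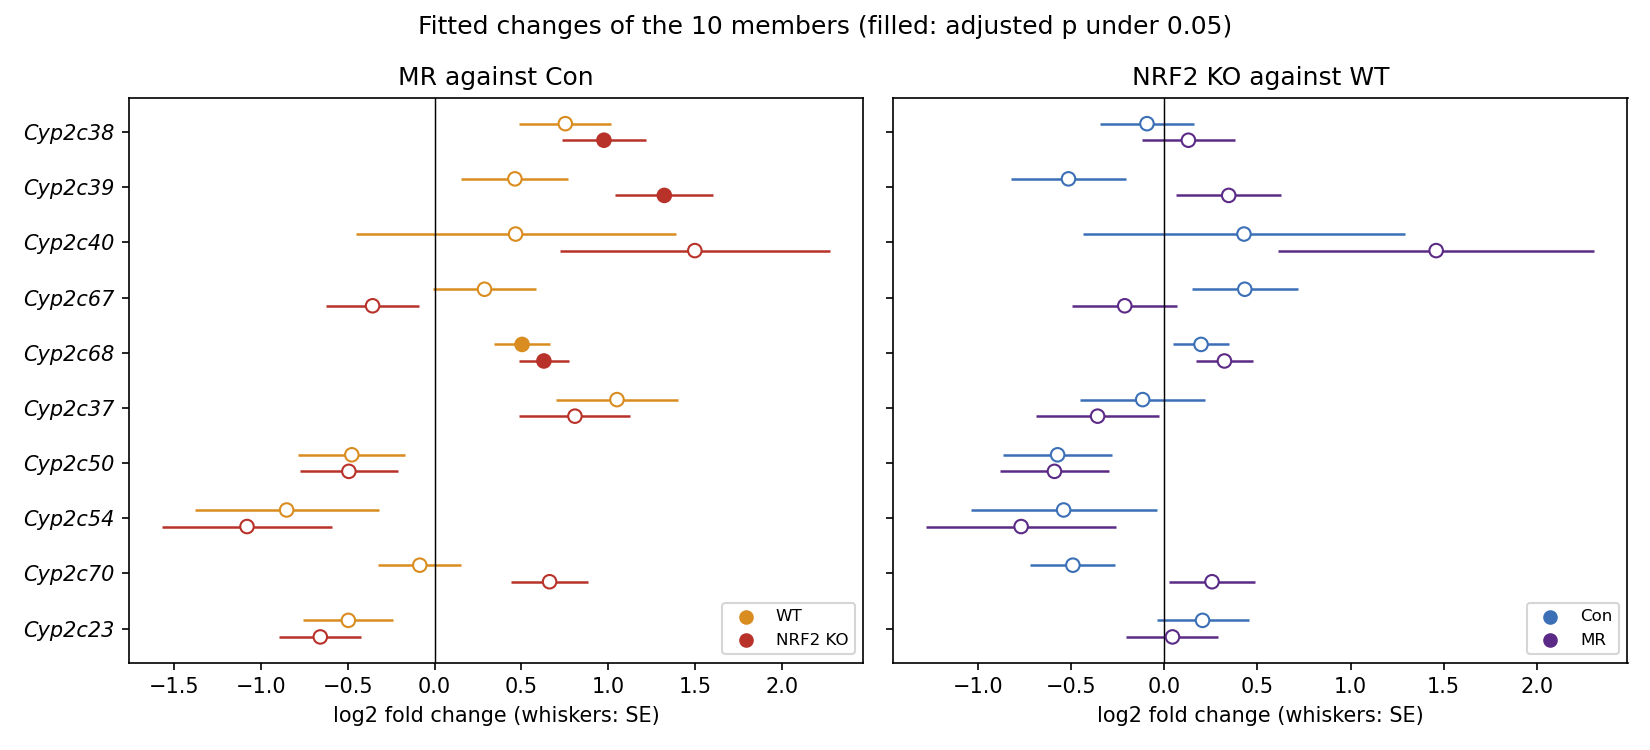
Fitted log2 fold change of each member for MR against Con (left) and for NRF2 KO against WT (right), with whiskers of 1 SE, and filled points where the adjusted p was under 0.05. The filled points are Cyp2c68 in both genotypes and Cyp2c38 and Cyp2c39 in NRF2 KO, and no genotype comparison has a filled point.

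Cyp2c67, the other abundant copy beside Cyp2c68, had log2 fold changes of 0.29 in WT (SE 0.30, adjusted p = 0.57) and -0.36 in NRF2 KO (SE 0.27, adjusted p = 0.43), with means of 96.9 and 118 CPM on Con and MR in WT and of 131 and 102 CPM in NRF2 KO. Cyp2c40, which hydroxylates arachidonic acid, was decided by single mice. Mouse WT_MR_7615 held 32.2 CPM against 2.94 to 10.2 in the other 4, mouse KO_CON_7623 held 29.9 CPM against at most 8.20, and mouse KO_MR_7629 held 96.7 CPM against at most 18.4. The same 3 mice were the highest of their groups for Cyp2c69 (21.8, 20.3 and 77.9 CPM). They were also the highest for Cyp2c68 (262, 211 and 281 CPM) and for Cyp2c37 (319, 130 and 187 CPM), by smaller margins. Whether Cyp2c68 and Cyp2c40 shared reads in these mice was not tested. Without mouse WT_MR_7615 the WT change of Cyp2c40 turned from 0.47 to -0.45, and no call was made for it in any fit.

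Cyp2c70, the hydroxylase by which mouse liver makes muricholic acids, had different fitted changes in the genotypes. In WT it was 164, 178, 285, 159 and 241 CPM on Con and 159, 246, 233, 155 and 174 CPM on MR, a log2 fold change of -0.09 (SE 0.24, adjusted p = 0.86) whose sign turned under scaling by library size alone (0.0072). In NRF2 KO it ran from 95.8 to 214 CPM (median 136) on Con and from 143 to 324 CPM (median 224) on MR, and 4 of 6 MR mice lay above every Con mouse. The log2 fold change of 0.66 (SE 0.22, adjusted p = 0.052) fell just short of the threshold, and 5 of the 8 other settings, DESeq2 among them, put it past, as did leaving out WT_CON_7605 (0.67), KO_CON_7618 (0.80) or KO_MR_7631 (0.77). The difference between the genotypes was 0.75 (SE 0.32, unadjusted p = 0.032, adjusted p = 0.61) and did not pass.

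Cyp2c23, an epoxygenase of arachidonic acid and the most abundant member in all 4 groups, was 541, 285, 430, 402 and 433 CPM in WT Con and 178, 345, 404, 228 and 327 CPM in WT MR. It ran from 287 to 624 CPM (median 509) in NRF2 KO Con and from 182 to 441 CPM (median 296) in NRF2 KO MR, where every MR mouse lay below the Con median and 3 of 6 lay below every Con mouse. The log2 fold changes were -0.50 (SE 0.26, adjusted p = 0.22) and -0.66 (SE 0.24, adjusted p = 0.072), and the second passed with DESeq2 (-0.65) and without KO_CON_7621 (-0.77) or KO_MR_7632 (-0.79).

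Since no member passed the interaction, the diet effect was also averaged over both genotypes in the same model, a contrast chosen after seeing these values. Here 5 of the 10 members were called, against 27.4% of all genes. Cyp2c38 (log2 fold change 0.86, SE 0.18, adjusted p = 0.0014), Cyp2c39 (0.89, SE 0.21, adjusted p = 0.0026), Cyp2c37 (0.93, SE 0.24, adjusted p = 0.0069) and Cyp2c68 (0.57, SE 0.11, adjusted p = 0.00048) rose with MR. Cyp2c23 fell (-0.58, SE 0.17, adjusted p = 0.019). Cyp2c54 (-0.97, adjusted p = 0.054), Cyp2c50 (-0.48, adjusted p = 0.091), Cyp2c70 (0.29, adjusted p = 0.20), Cyp2c40 (0.98, adjusted p = 0.24) and Cyp2c67 (-0.03, adjusted p = 0.92) did not pass, and the 5 calls held under each scaling, filter, tool and single-mouse omission tried, except that the filter of at least 10 counts in every mouse removed Cyp2c39, which then had no result. Cyp2c54 passed with DESeq2, with limma, with at least 10 counts in every mouse and without WT_CON_7607 (-1.04), WT_MR_7613 (-1.09), KO_CON_7621 (-1.06) or KO_MR_7632 (-1.20). Cyp2c50 passed without KO_CON_7621 (-0.56) or KO_MR_7632 (-0.58), and Cyp2c70 with library size alone.

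The summed level of the 10 members differed by less than its spread between groups: on Con and MR it was 1500 ± 219 and 1432 ± 162 CPM in WT, and 1395 ± 360 and 1385 ± 143 CPM in NRF2 KO. The mean makeup differed between the diets for some members. Cyp2c23, Cyp2c50 and Cyp2c54 made up 27.9%, 24.1% and 7.77% of the sum on Con in WT, and 20.4%, 17.9% and 4.40% on MR. In NRF2 KO they made up 34.5%, 17.2% and 5.62% on Con and 21.9%, 12.4% and 2.69% on MR. Cyp2c37, Cyp2c38 and Cyp2c68 made up 5.73%, 4.41% and 9.47% on Con in WT, and 12.7%, 7.86% and 14.2% on MR. In NRF2 KO the same 3 genes made up 5.53%, 4.47% and 11.8% on Con and 10.2%, 8.71% and 18.02% on MR. Cyp2c67 and Cyp2c70 did not move alike in the genotypes: on Con and MR they made up 6.42% and 8.21%, and 13.6% and 13.5%, in WT. In NRF2 KO they made up 9.29% and 7.32%, and 10.9% and 16.7%. The shares spread between mice, as for Cyp2c38 in WT (SD 1.33 on Con and 3.11 on MR). These shares are descriptions, with no test over the members.

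**Figure D3:**
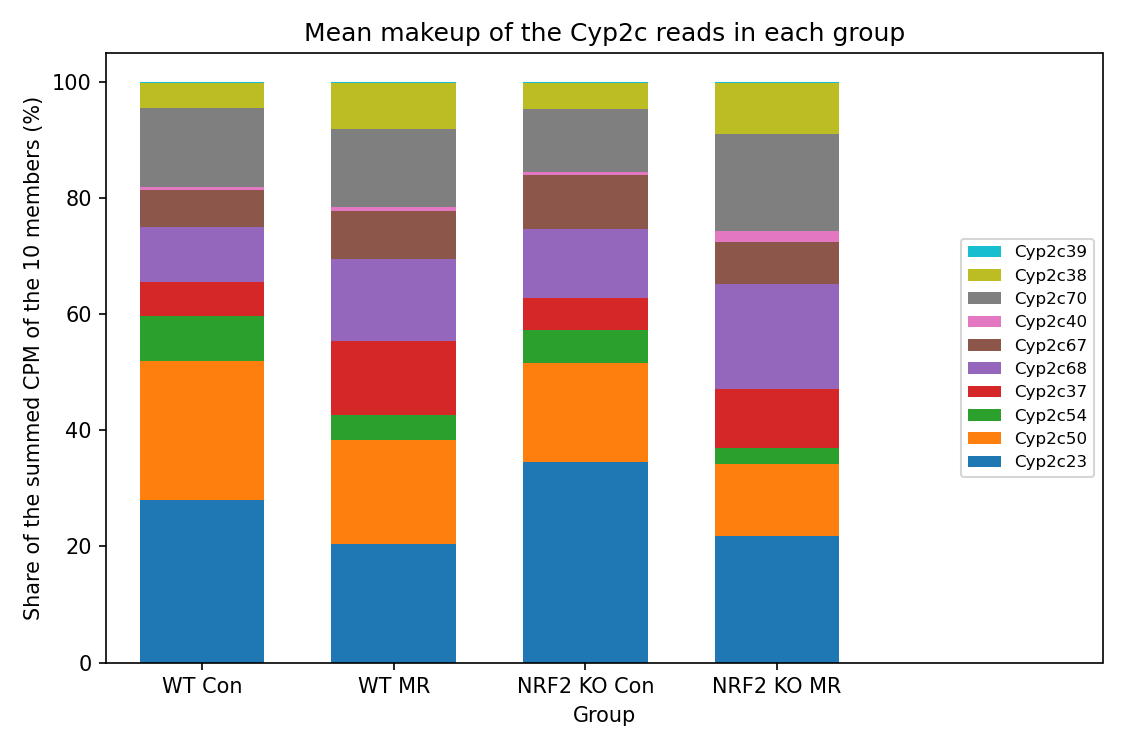
Mean share of each member in the summed CPM of the 10 members (vertical axis, percent) in the 4 groups, with 1 colour per gene. The shares of Cyp2c23, Cyp2c50 and Cyp2c54 at the base are smaller in both MR groups than in the Con group of the same genotype, and those of Cyp2c37, Cyp2c38 and Cyp2c68 larger.

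The comparison of NRF2 KO with WT on each diet asks whether these genes depended on hepatic NRF2, a transcription factor that induces detoxification enzymes. No member was called on Con (0 of 10, against 2.07% of all genes), on MR (0 of 10, against 1.93%) or in the interaction of genotype and diet (0 of 10, against 0.0450%), with the edgeR test, with DESeq2 or under any other setting tried that tested it (the filter of at least 10 counts removed Cyp2c39). At an unadjusted p under 0.05, 1 member differed on Con (Cyp2c70, log2 difference -0.49, SE 0.23), 1 on MR (Cyp2c68, 0.32, SE 0.15) and 1 in the interaction (Cyp2c70), where 14.4%, 13.9% and 7.56% of all genes did. In all, 4 of the 10 members lay above 0 on Con and 6 on MR (median log2 difference -0.10 and 0.087). The largest differences above 0 were those of Cyp2c67 on Con (0.43, SE 0.28) and of Cyp2c40 (0.43, SE 0.86, on Con and 1.46, SE 0.85, on MR). The largest differences below 0 were those of Cyp2c50 (-0.57, SE 0.29, on Con and -0.59, SE 0.29, on MR) and Cyp2c54 (-0.54, SE 0.50, and -0.77, SE 0.51). Without the library labelled WT_CON_7607, Cyp2c50 and Cyp2c54 were -0.69 and -0.69 on Con, still not called. Both diets' comparisons use different mice, but each shares its groups with the diet comparisons above.

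The members were next compared mouse by mouse over the 22 mice, whose groups share diet and genotype, so the correlations are descriptions. Cyp2c54 and Cyp2c50 varied together, with a Pearson r of log2 CPM of 0.94 (0.95 after subtracting group means), and Cyp2c23 varied with Cyp2c54 (0.78, and 0.81 within groups). Cyp2c38 varied with Cyp2c68 (0.82, and 0.68 within groups) and with Cyp2c39 (0.77, and 0.54). Cyp2c68 and Cyp2c54 varied against each other (-0.76, and -0.55 within groups). Cyp2c37 did not vary with its close copies Cyp2c54 (-0.30, and 0.03 within groups) and Cyp2c50 (-0.11, and 0.15). Cyp2c67 did not vary with its close copy Cyp2c68 (0.02, and 0.07 within groups) and varied with Cyp2c23 (0.60, and 0.75).

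**Figure D4:**
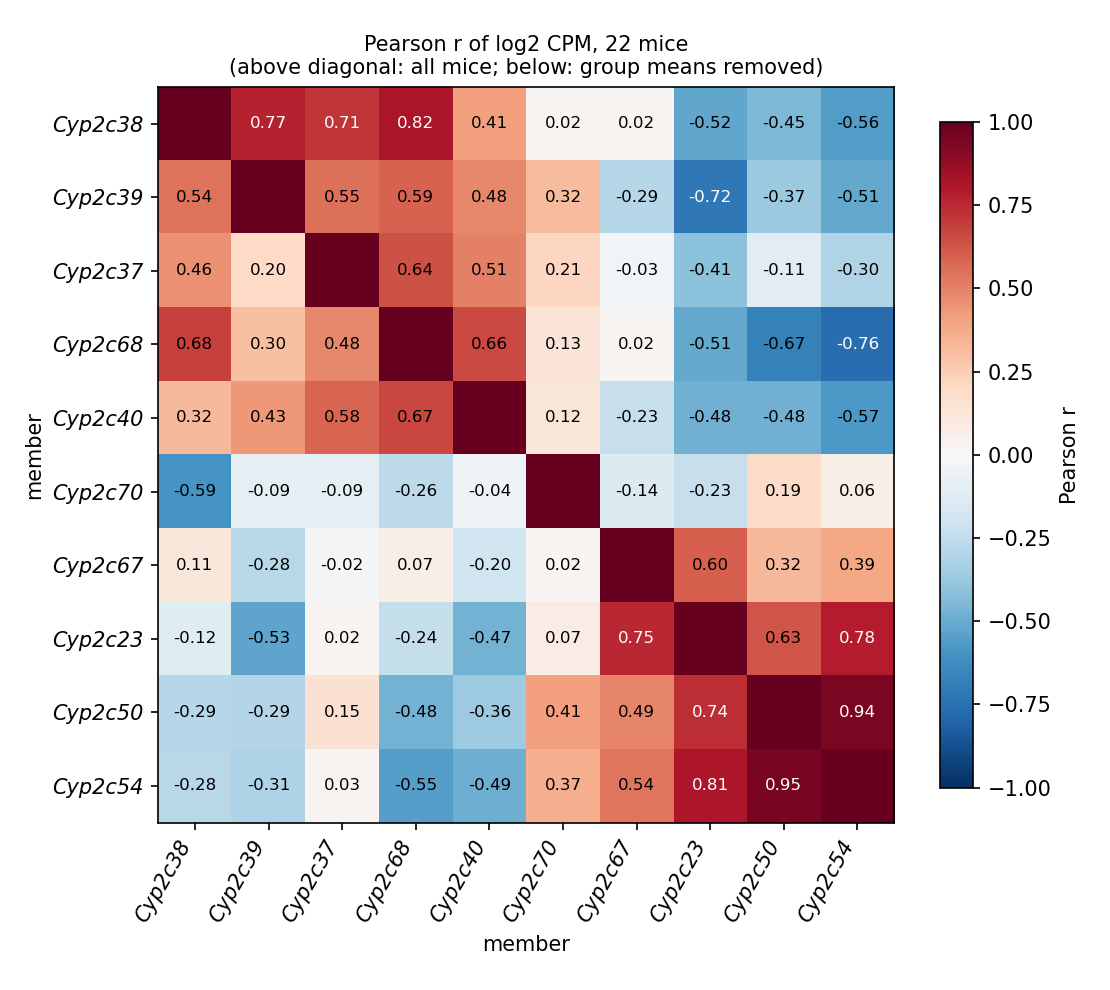
Pearson r of log2 CPM between each pair of members over 22 mice, above the diagonal as measured and below it after subtracting the group means; colour runs from -1 (blue) to 1 (red). Cyp2c23, Cyp2c50 and Cyp2c54 form a red block at the lower right, and Cyp2c38, Cyp2c39, Cyp2c37, Cyp2c68 and Cyp2c40 a red block at the upper left.

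Among the 11997 genes tested with a mean of at least 1 CPM, the genes most like Cyp2c68 over the 22 mice were Cyp4a31 (r = 0.90), Trim24 (0.89) and Acot4 (0.88), and those most like Cyp2c38 were Cyp4a14 (0.87), Sik1 (0.86) and Cers6 (0.85). The genes most like Cyp2c54 were Cyp2c50 (0.94), Aldh7a1 (0.91) and Ces3b (0.91), and those most like Cyp2c23 were Slc22a28 (0.91), Ugt2b38 (0.87) and Nudt7 (0.86). For Cyp2c40 the first was Cyp2c69 (0.96), a copy 92.5% identical to it in coding sequence, and the next was Hic2 (0.75).

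Several liver P450 genes differ between the sexes under the pattern of growth hormone secretion, and all of these mice were male. Of 19 tested genes of a list of male-biased liver genes, 6 fell with MR in WT and 13 in NRF2 KO, with 0 rising in either (median log2 fold change -1.38 and -2.87), and of 18 tested female-biased genes 7 and 10 rose and 1 and 1 fell (median 1.46 and 1.81). Across the 22 mice the summed male-biased level varied with Cyp2c23 (r = 0.86), Cyp2c54 (0.82) and Cyp2c50 (0.63) and against Cyp2c68 (-0.80), Cyp2c38 (-0.78), Cyp2c39 (-0.75), Cyp2c37 (-0.66) and Cyp2c40 (-0.53). Within groups the values were closer to 0 for Cyp2c23 (0.80), Cyp2c68 (-0.65), Cyp2c38 (-0.45), Cyp2c39 (-0.46) and Cyp2c37 (-0.30). They were larger in size within groups for Cyp2c54 (0.87), Cyp2c50 (0.75), Cyp2c67 (0.63, against 0.42 over the 22 mice) and Cyp2c40 (-0.58). The summed female-biased level varied with Cyp2c38 (0.92, and 0.84 within groups) and Cyp2c68 (0.80, and 0.66). Its r with Cyp2c70 was -0.14 over the 22 mice and -0.69 within groups. No member is in either list, although Cyp2b9, Cyp2b13, Cyp3a44 and Sult1e1 of the female-biased list are also in the list of xenobiotic receptor targets given next, and the part of these levels in the members' values was not tested.

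Other genes of the same machinery moved as follows, where 13.8% of all genes were called with MR in WT and 12.6% in NRF2 KO. Por, the reductase that passes electrons to every microsomal P450, rose with MR in WT (log2 fold change 1.32, SE 0.24, adjusted p = 0.0012) and in NRF2 KO (1.13, SE 0.22, adjusted p = 0.0021), one of 15 genes of electron supply and heme of which 2 rose and 2 fell in WT and 1 rose and 1 fell in NRF2 KO. Of 29 tested genes known as targets of the xenobiotic receptors CAR and PXR, 15 rose and 0 fell in WT and 15 rose and 1 fell in NRF2 KO. Over the 22 mice the summed level of this list varied most with Cyp2c38 (r = 0.64, and 0.67 within groups) and Cyp2c37 (0.64, and 0.32). On the genotype axis 7 of the 29 were lower in NRF2 KO on Con and 8 on MR, with none higher, where no Cyp2c member was called. Of all genes, 2.07% and 1.93% were called there in either direction. Among 20 other tested Cyp2 genes, 4 rose and 2 fell in WT and 6 rose and 6 fell in NRF2 KO, and Cyp2a5, a coumarin hydroxylase, rose by 2.92 (SE 0.36) and 1.29 (SE 0.31) on the log2 scale. Por, Cyp2a5, Cyp2b9, Cyp2b10 and Cyp2b13 stand in more than 1 of these lists, so the counts are not independent of each other.

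Of 28 regulators of these genes, 4 rose and 1 fell with MR in WT and 3 rose and 3 fell in NRF2 KO. For comparison, 13.8% and 12.6% of all genes were called in either direction. Cux2, a repressor found mainly in female liver, rose (3.16, SE 0.90, adjusted p = 0.026, and 4.57, SE 0.89, adjusted p = 0.0027), and Ghr, the growth hormone receptor, fell (-0.74, SE 0.17, adjusted p = 0.0046, and -0.81, SE 0.15, adjusted p = 0.0013). Nr1i2, which encodes PXR, rose in NRF2 KO (0.35, SE 0.09, adjusted p = 0.013). On the genotype axis, 5 of the 28 regulators were higher and 0 lower in NRF2 KO on Con (2.07% of all genes called). On MR 0 were higher and 1 was lower (1.93%). Among 19 tested genes that act beside the Cyp2c enzymes on arachidonic acid, Ephx1, an epoxide hydrolase, rose in both genotypes (1.42 and 0.93) and was lower in NRF2 KO on both diets (-1.26 on Con and -1.75 on MR). In all, 2 of the 19 rose and 2 fell in WT, and 3 rose and 6 fell in NRF2 KO. Among 14 bile acid genes tested beside Cyp2c70, 3 rose and 1 fell in WT and 1 rose and 3 fell in NRF2 KO. Cyp39a1, an oxysterol hydroxylase, rose in both (2.24 and 2.07), and Cyp8b1, which directs synthesis toward cholic acid, fell in NRF2 KO (-1.56, SE 0.42, adjusted p = 0.019). Of 18 pericentral genes 1 rose and 4 fell in WT and 1 rose and 7 fell in NRF2 KO, and of 18 periportal genes 1 rose and 1 fell in WT and 0 rose and 3 fell in NRF2 KO.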

How the data were processed

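Mouse liver RNA was sequenced as QuantSeq 3′ libraries, 1 per mouse. The authors deposited unnormalized read counts for 15160 genes, each with at least 72 counts over all mice, made with the QuantSeq FWD pipeline of the kit's maker. The labels name GRCm38/mm10, DESeq2 1.18.1 and R 3.4.3, and the aligner is not given in the sources used here. The authors also deposited a signal table, in which each mouse's counts are scaled by its DESeq2 size factor, and it served 1 alternative.

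Counts were fitted in R 4.3.3 with edgeR 4.0.16 (TMM scaling, filterByExpr, robust quasi-likelihood F-tests) as 4 group means over 22 mice. The filter kept 13336 of 15160 genes, and p-values were adjusted over all of them by Benjamini-Hochberg, with calls under 0.05. Depth was 6197291 to 22068338 counts per mouse. No technical replicates exist, so precision is the spread between mice. Libraries of a group all differed by more than counting noise. Alternatives were DESeq2 size factors, library size alone, no filter, at least 10 counts in every mouse, DESeq2 1.42.0, limma 3.58.1 on log2(signal + 1), all 24 mice, only the groups compared, and each mouse left out in turn. The code was tested on simulated data.

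All 10 members are named, and other genes by size of change among those called in each list or by likeness to a member. The members and lists were chosen with earlier results of these data known. Lists came from general knowledge. Columns of gene annotation were used for names only. Sequences came from GENCODE M21 and from RefSeq (GRCm38.p6).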

Additional observations from a re-analysis of the deposited data

Results flagged for a closer look

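Of the 40 groups of mice examined over the 10 members, 4 held a mouse far from the nearest other mouse. The distance was a large part of the group's range by Dixon's ratio. Its cut-off gives about 1 in 20 groups only for normally distributed, independent values. The CPM used here were not log-transformed, and the same mice recur across members, so that rate does not hold here. For Cyp2c40 the highest mice were WT_MR_7615 in WT MR (32.2 CPM, nearest other 10.2), KO_CON_7623 in NRF2 KO Con (29.9 CPM, nearest other 8.20) and KO_MR_7629 in NRF2 KO MR (96.7 CPM, nearest other 18.4). For Cyp2c39 the lowest mouse was KO_CON_7618 in NRF2 KO Con (0.42 CPM, nearest other 1.33).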

How the results depend on the processing

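No paired analysis was possible because the mouse numbers are not shared between groups. The number of members called with MR in WT was 1, and became 2 with library size only, 3 with DESeq2, 2 with all 24 mice and 0 with only the groups compared, with 0 to 3 over single-mouse omissions. In NRF2 KO it was 3, and became 5 with library size only and 5 with DESeq2, with 3 to 5 over omissions. For the averaged diet effect it was 5, with 5 to 7 over omissions. The calls over all genes moved as well. In WT they were 1843, and became 1960 with library size only and 2132 with DESeq2. They became 1793 with all 24 mice and 1233 with only the groups compared, with 1416 to 1974 over omissions. In NRF2 KO they were 1677, and became 2785 with library size only and 2034 with DESeq2, with 1188 to 2027 over omissions. For the averaged effect they were 3648, with 3336 to 3889 over omissions. Library size alone shifted the median of all genes by 0.156 in the NRF2 KO diet comparison and 0.124 in the averaged one.

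Values near 0 changed sign as follows. With all 24 mice, NRF2 KO against WT on Con became 0.085 for Cyp2c37 and 0.0010 for Cyp2c38, and the interaction of Cyp2c50 became 0.0052. With library size only the interaction of Cyp2c50 became 0.027, MR in WT became 0.0072 for Cyp2c70, and the averaged diet effect became 0.077 for Cyp2c67. With limma the interaction of Cyp2c50 became 0.052 and the averaged effect of Cyp2c67 became 0.011. The causes were not tested.

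Over omissions of single mice the ranges that cross 0 were, for NRF2 KO against WT on Con, -0.31 to 0.037 (Cyp2c37), -0.24 to 0.052 (Cyp2c38) and -0.38 to 0.63 (Cyp2c40). On MR it was -0.095 to 0.18 (Cyp2c23). For MR in WT they were -0.45 to 0.73 (Cyp2c40) and -0.19 to 0.059 (Cyp2c70), and for the averaged effect -0.12 to 0.062 (Cyp2c67). For the interaction they were -0.41 to 0.067 (Cyp2c37), -0.14 to 1.96 (Cyp2c40), -0.21 to 0.16 (Cyp2c50) and -0.70 to 0.023 (Cyp2c54).

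Over the whole table, the calls for MR in NRF2 KO went from 1677 to 2785 with library size only. NRF2 KO against WT on Con went from 276 to 444 with DESeq2, to 99 with only the groups compared and to 181 without mouse WT_CON_7603. On MR it went from 258 to 496 with DESeq2 and to 600 with only the groups compared. The interaction went from 6 to 36 with DESeq2 and from 3 to 12 over omissions. Depth limits Cyp2c39 most, at 6 to 83 counts per library.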

Other observations

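The mice left out of the comparisons, scaled together with the other 22, held Cyp2c54 at 21.8 CPM (WT_CON_7604) and 3.31 CPM (WT_MR_7612) and Cyp2c50 at 69.9 and 38.97 CPM. Cyp2c23 was 387 CPM in WT_CON_7604 and 120 CPM in WT_MR_7612, and Cyp2c68 was 123 and 236 CPM. Mouse WT_MR_7612 held Cyp2c40 at 32.2 CPM, and mouse WT_CON_7604 held it at 0.54 CPM.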
